A study of Mus musculus with 6 samples.

Results

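Assembled antisense transcripts are the RNAs that the authors put together from their own reads and labelled as antisense long non-coding RNAs (lncRNAs), with identifiers that start with MSTRG. All lines of the deposited lncRNA table with the label "Antisense LncRNA" were taken, which gave 1053 transcripts of 24817 features in all. They were grouped by the identifier without its last number into 940 loci, of which 868 held 1 transcript and 72 held 2 or more. Other kinds of assembled transcript in the table, 674 labelled intronic and 578 labelled intergenic, are used below only for comparison.

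RAW264.7, an established line of mouse macrophages, gave the RNA for 6 libraries, 3 in each of 2 groups. All cells received lipopolysaccharide (LPS), a bacterial cell wall component that activates macrophages, for 24 h, and then medium extracted from bone cement of polymethyl methacrylate (PMMA). The LPS_ES_PMMA group had cement with enoxaparin sodium (a heparin of low molecular weight), and the LPS_PMMA group had cement without it. The columns of the control group are headed LPS in the table, so that plain cement extract in these cells rests on their titles and treatment labels. Separate cultures are nowhere stated, so p-values measure only how these 6 libraries spread, possibly for technical reasons.

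Natural antisense transcripts are RNAs copied from the strand opposite a gene, and some are known to alter the transcription, splicing or stability of the RNA they face. In LPS-treated macrophages, antisense and other lncRNAs near cytokine and interferon genes are often induced together with those genes. Calling an assembled RNA antisense needs both its strand and its true position, and a mistake in either can turn a piece of an ordinary messenger RNA into an apparent antisense RNA.

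Transcripts that differed between the groups ended within 67 bp of the start of 9 genes with a RefSeq promoter in GRCm38.p6. For 4 of these, whose transcripts the results turn on, the 250 bases before the start are printed 5′ to 3′ on the gene's strand, with matches to a motif in capitals. Both strands were searched for the box TATAAA, the AP-1 motif TGANTCA (which reads the same on both strands), an interferon response element and an NF-kB motif, the latter 2 of 10 bases each with 2 free ones.
Spp1, chr5:104434861-104435110: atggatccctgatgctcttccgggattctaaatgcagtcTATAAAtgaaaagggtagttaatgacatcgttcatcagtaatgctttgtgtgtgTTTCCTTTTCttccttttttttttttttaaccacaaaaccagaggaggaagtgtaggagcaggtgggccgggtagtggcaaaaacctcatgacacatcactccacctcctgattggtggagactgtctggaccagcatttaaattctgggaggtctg
Il1rn, chr2:24336610-24336859: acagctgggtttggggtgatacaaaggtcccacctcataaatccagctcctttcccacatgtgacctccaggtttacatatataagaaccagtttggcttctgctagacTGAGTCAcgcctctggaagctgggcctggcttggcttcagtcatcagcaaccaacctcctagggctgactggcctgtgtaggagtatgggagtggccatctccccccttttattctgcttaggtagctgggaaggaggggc
Parp11, chr6:127446590-127446839: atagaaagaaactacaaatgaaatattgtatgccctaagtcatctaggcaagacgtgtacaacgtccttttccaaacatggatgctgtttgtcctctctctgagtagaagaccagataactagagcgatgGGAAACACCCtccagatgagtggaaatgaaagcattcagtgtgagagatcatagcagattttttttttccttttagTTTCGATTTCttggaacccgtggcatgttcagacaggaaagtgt
Phf11d, chr14:59365491-59365740: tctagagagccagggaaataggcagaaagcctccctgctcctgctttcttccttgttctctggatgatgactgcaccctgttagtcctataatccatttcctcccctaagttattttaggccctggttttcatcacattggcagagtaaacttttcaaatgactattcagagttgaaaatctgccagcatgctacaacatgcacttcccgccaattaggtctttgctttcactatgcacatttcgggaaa
The interferon response element matched on the other strand in Spp1 and Parp11, and 2.98% of 32851 RefSeq promoters held a match in the same window. TATAAA matched in Spp1 (12.4% of all promoters), TGANTCA in Il1rn (6.75%) and the NF-kB motif on the other strand in Parp11 (1.41%). No match to any of the 4 motifs was found in the window of Phf11d. Of the other 5 genes (Gm35082, Man2c1os, Gpr146, Serbp1 and Selenoh), Gm35082 held TGANTCA and the rest held no match. A match is a string of letters and not evidence of binding.

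The transcripts were between 201 and 8327 nt long (median 586 nt) and spanned 236 to 555369 bp (median 9755 bp). In each of the 1053 the span was longer than the transcript, so each is listed as spliced. The mean FPKM (fragments scaled by the authors to transcript length and library size) had a median of 8.24 and was at least 100 in 50 transcripts, and 818 had reads in all 6 libraries. The smallest mean FPKM was 1.36, so the lowest levels are not represented among them. Total counts per library over the whole table lay between 1123551 (LPS_ES_PMMA 2) and 3697638 (LPS_PMMA 1).

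The position and the antisense label of these transcripts could be checked in part against annotation, which the listed positions did not match. The table names a gene for 911 of the 1053 transcripts (763 different genes, 797 of the 911 protein-coding), and the listed position overlaps that gene on GRCm38 in 898. In 82 transcripts, however, both the span and the summed exon length equalled those of an annotated transcript of the same chromosome within 10 nt, and in 0 of the 82 at the listed position. The offset was between 14.2 and 1217 kb in size, with a median of 153 kb, and 68 of the 82 matched a protein-coding gene and 7 a gene annotated as antisense RNA. Of the 69 matched transcripts with a listed gene, the listed gene was the matched one in 3.

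Further transcripts showed the same shift without an exact match. For 872 transcripts, structure matches of other loci within 20 Mb gave an offset to try. At that offset 345 of the 872 had an end within 20 bp of an annotated transcript end, against 13 at the listed position, and 137 met both ends of 1 gene. Of 334 transcripts whose neighbours on either side gave the same offset, 327 overlapped the listed gene as listed and 31 at that offset. The labels name build mm10 (GRCm38), at which 0 of the 82 lie. The table's strand column equalled the strand of the listed gene in 911 of 911 cases, so the transcript's own strand is not given there. The matched gene lay on the strand opposite to that column, as an antisense call against the listed gene would have it, in 49 of the 69 transcripts, and on the same strand in 20. For the 68 transcripts with the structure of a transcript of a protein-coding gene, the antisense label is doubtful. A call against the listed gene is doubtful too for most of the 334, since only 31 of them overlapped that gene at the offset of their neighbours. Whether the other transcripts are antisense to any gene cannot be settled from these columns. Below, "listed gene" is the name in the table, "tied gene" is one whose annotated end was met at a neighbouring offset, and positions are printed as listed, on a build that no source used here gives.

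The assembled antisense transcripts held 67.0%, 60.8% and 57.0% of all counts in LPS_PMMA 1, 2 and 3, and 50.3%, 35.4% and 49.9% in LPS_ES_PMMA 1, 2 and 3. Nearly all of this lay in 4 transcripts of 2 loci, MSTRG.12263 and MSTRG.12264, listed on chromosome 12 between 69206067 and 69408256. The table lists them with Pole2, a DNA polymerase epsilon subunit gene, but at the neighbouring offset of 46774 bp each has an end on Rn7s1 or Rn7s2. These genes encode 7SL RNA, the RNA core of the signal recognition particle, which brings ribosomes making secreted proteins to the endoplasmic reticulum. MSTRG.12264.1 and MSTRG.12263.1 (472 nt) and MSTRG.12263.2 (473 nt) meet ends of both genes, over listed spans of 202188 or 202189 bp. As listed, they thus run from 1 gene to the other, and whether such a joined RNA exists was not tested. The 4 held 64.4%, 57.6% and 53.4% of the counts in LPS_PMMA and 46.1%, 28.7% and 46.0% in LPS_ES_PMMA.

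Shares of the 7SL transcripts did not overlap between the groups, with 58.5% ± 5.55 (SD, n = 3) in LPS_PMMA and 40.3% ± 9.99 in LPS_ES_PMMA. The exact two-sided permutation p was 0.1, the smallest that 3 against 3 libraries allow. The remaining 1049 transcripts held 7.55% ± 0.164 of the remaining counts in LPS_PMMA and 8.11% ± 1.07 in LPS_ES_PMMA (exact two-sided permutation p = 0.5). LPS_ES_PMMA 2, the library with the lowest total, had the lowest 7SL share and the highest share of other antisense transcripts, 9.32%. How the 7SL reads entered the libraries was not tested.

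**Figure D1:**
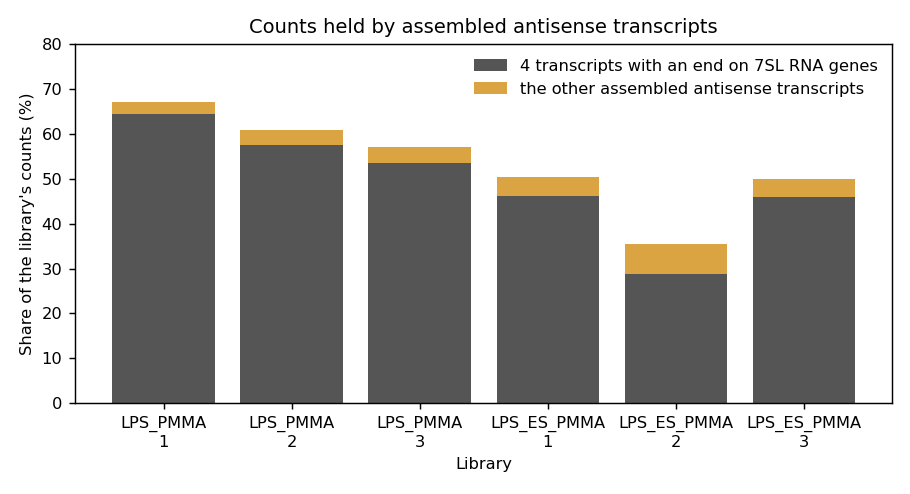
Share of each library's counts (y axis, %) held by the 4 transcripts with an end on the 7SL genes (grey) and by the other assembled antisense transcripts (yellow), for the 6 libraries (x axis). The grey part runs from 28.7% to 46.1% in LPS_ES_PMMA and from 53.4% to 64.4% in LPS_PMMA, while the yellow part is small in each library.

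Per length, MSTRG.12264.1 was the most abundant, with FPKM of 885798, 699253 and 637712 in LPS_PMMA and 534601, 229552 and 643057 in LPS_ES_PMMA. The groups overlapped, and it did not pass the test (edgeR log2 fold change -1.14 ± 0.74 SE with adjusted p 0.41). MSTRG.12263.1 had a mean FPKM of 143406 and held 0 counts in LPS_ES_PMMA 2 against 90273 to 492349 in the other 5 libraries. MSTRG.12263.2, of the same listed span and 473 in place of 472 nt, held 54283 counts in LPS_ES_PMMA 2 and 3604 to 15707 elsewhere. Reads of 2 nearly equal isoforms were thus divided differently in that library. The table does not show how the authors' counting shares reads between overlapping transcripts, so values of single isoforms are uncertain.

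The other transcripts among the 8 highest in mean FPKM were MSTRG.12264.2, MSTRG.21596.1, MSTRG.11187.1, MSTRG.21596.2 and MSTRG.9713.1. MSTRG.21596.1 and MSTRG.21596.2 are listed with Litaf, an LPS-induced regulator gene, MSTRG.11187.1 had an end on Hmga1b, a relative of the chromatin protein gene Hmga1, and MSTRG.9713.1 had an end on Rnu3b1, a gene of U3 small nucleolar RNA. None of the 8 passed, with adjusted p from edgeR between 0.41 and 0.922. Small abundant RNAs, of the signal recognition particle and of nucleolar RNA processing, are thus among the genes at which the highest of these transcripts end.

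The comparison of the groups asked which of these transcripts differ between cells kept in extract of cement with and without enoxaparin. Of 1053 transcripts, 799 had enough reads to be tested, and 55 passed edgeR's quasi-likelihood test at a Benjamini-Hochberg adjusted p of 0.05, that is 6.88%. Of all 8873 tested features 4.76% passed. In LPS_ES_PMMA, 18 transcripts were higher (2.25%, against 2.18% of all features) and 37 were lower (4.63%, against 2.58%). The 55 came from 52 loci, and their log2 fold changes were no smaller than 1.13 in size (median 2.31, median SE 0.36). In each of them FPKM did not overlap between the groups, but passing the test favours such separation. The share without overlap over all features was not taken, so the separation is not used as support. Just inside the threshold lay MSTRG.30625.1 (edgeR adjusted p = 0.0483), and just outside lay MSTRG.59429.1 (0.056).

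How libraries were scaled set how many calls pointed up or down. With TMM factors 18 were up and 37 down, with column totals 27 and 12, with totals implied by the FPKM columns 26 and 17, and with column totals without the 7SL transcripts 24 and 26. The median log2 fold change of the 799 was -0.38 under TMM, 0.41 under column totals, 0.09 under implied totals and -0.11 without the 7SL transcripts. Set against all tested features under the same scaling, that median differed by -0.41 to -0.37 under the 4. Each of the 55 kept its direction under these 4 scalings, and 30, 35 and 44 of the 55 also passed under the other 3.

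Low medians were shared by the other assembled classes. Under TMM the median log2 fold change was -0.38 for antisense, -0.37 for intronic and -0.43 for intergenic assembled transcripts, against 0.11 for the 7239 annotated features tested. The share that passed was 6.88%, 7.99%, 7.05% and 4.20% in the same order. Whether these classes differ was not tested, and no more is read from the shares of antisense transcripts than their closeness to those of other assembled RNA.

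**Figure D2:**
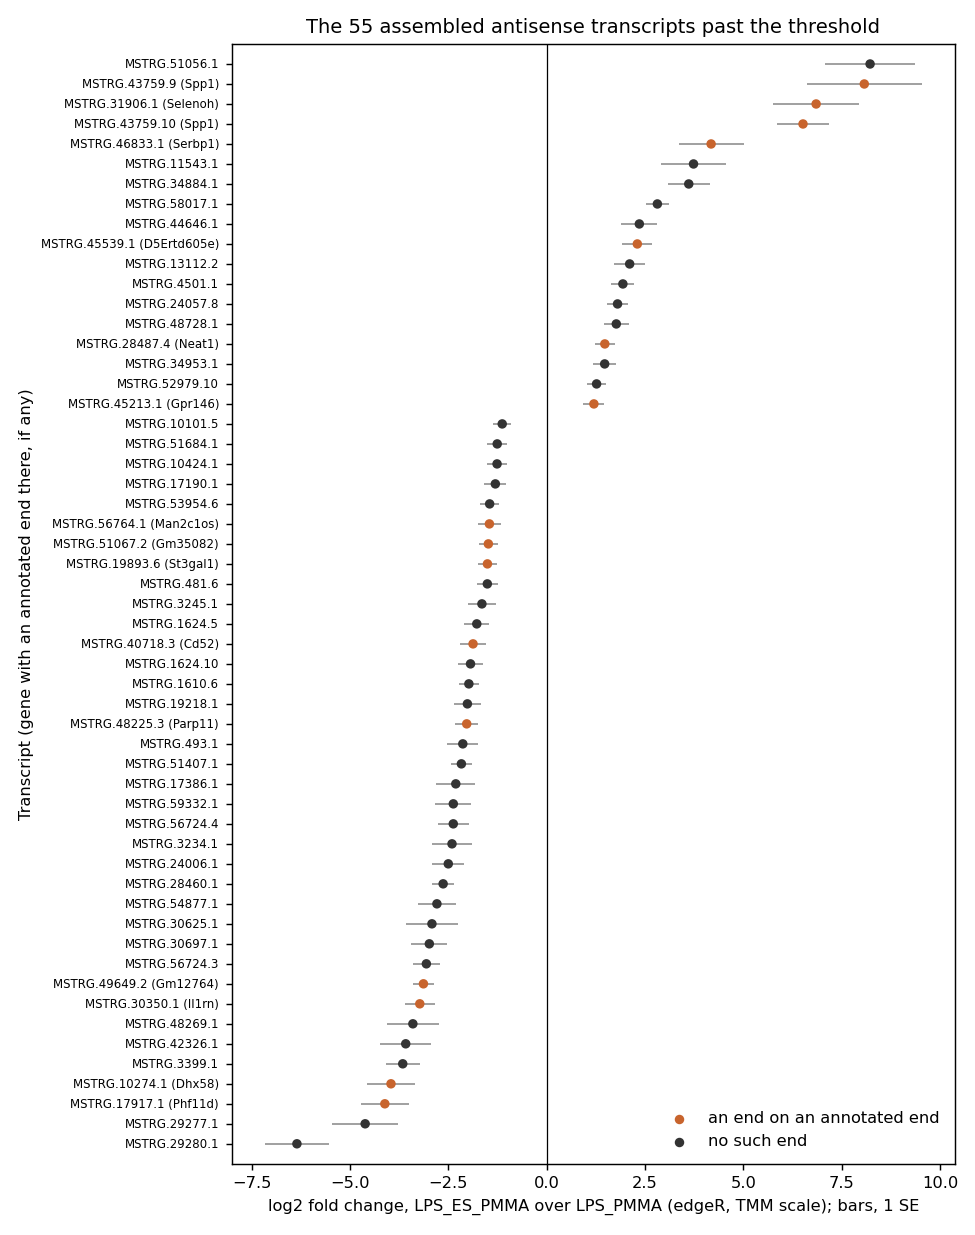
Log2 fold change of LPS_ES_PMMA over LPS_PMMA (x axis, edgeR on the TMM scale; bars, 1 SE) for the 55 assembled antisense transcripts past the threshold (y axis, with a tied gene in brackets). Of these, 18 lie to the right of 0 and 37 to the left, and the 16 orange points are transcripts with an end on an annotated end.

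Among transcripts that fell with enoxaparin, 1 was tied to a gene of the fixed interferon list and 3 more were only listed with such genes. In the interferon response, cells that sense virus-like RNA or LPS switch on antiviral genes. MSTRG.10274.1 (chromosome 11, 100589298 to 100595078, 1421 nt) has an end on Dhx58, the gene of the RIG-I-like receptor LGP2, while the table lists Dnajc7, a chaperone gene. It held 28.5, 12.2 and 8.3 CPM (counts scaled to 1e6 after TMM) in LPS_PMMA 1, 2 and 3, and 0.971, 1.01 and 1.01 in LPS_ES_PMMA 1, 2 and 3. All 3 libraries with enoxaparin lay far below the lowest control, on 4, 2 and 3 reads. The log2 fold change was -3.96 (edgeR, SE 0.60, adjusted p 0.0165), and it held in 2 of the 6 leave-one-out fits, each without 1 library.

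MSTRG.17917.1 (chromosome 14, 59586335 to 59602884, 1322 nt) has an end on Phf11d, a PHD finger protein gene whose promoter window is printed above. It had 61, 56 and 49 reads in LPS_PMMA and 5, 0 and 7 in LPS_ES_PMMA, and its log2 fold change was -4.12 (edgeR, SE 0.62, adjusted p 0.0165, past in 2 of 6 leave-one-out fits). The table lists it with Cdadc1, a cytidine deaminase family gene.

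MSTRG.29280.1 and MSTRG.29277.1, on chromosome 19 between 34547699 and 34566127, are listed with Ifit2, an interferon-induced gene that restrains viral translation. No structure match lay near enough to give them an offset, so their place at Ifit2 rests on the table alone. MSTRG.29280.1 held 60, 61 and 40 reads in LPS_PMMA and 0, 2 and 0 in LPS_ES_PMMA, and MSTRG.29277.1 held 57, 45 and 14 against 4, 0 and 2. Both groups are far apart for the first and closer for the second, whose LPS_PMMA 3 library is low. Their log2 fold changes were -6.35 (SE 0.82, edgeR adjusted p = 0.0106) and -4.62 (SE 0.84, edgeR adjusted p = 0.0265), past in 3 and in 1 of 6 leave-one-out fits.

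MSTRG.3399.1 is listed with Ifi213, of the family of interferon-induced DNA-binding proteins that includes AIM2, and met no annotated end at the offset of its neighbours, so it is not shown to lie at that gene. It went from 26.1 ± 10.1 CPM (SD, n = 3) in LPS_PMMA to 2.05 ± 0.435 in LPS_ES_PMMA (edgeR log2 fold change -3.66 ± 0.43 SE with adjusted p 0.00779, past in 4 of 6 leave-one-out fits). MSTRG.48225.3 meets both ends of Parp11, an ADP-ribosyltransferase gene, which is its listed gene too, and held 31, 24.4 and 28.5 CPM against 5.1, 8.1 and 7.41. Its log2 fold change was -2.04 (edgeR, SE 0.29, adjusted p 0.0145, past in 2 of 6 leave-one-out fits). Neither Parp11 nor Phf11d is on the interferon list.

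MSTRG.30350.1 (chromosome 2, 24226847 to 24241041, 2027 nt) has an end 22 bp from the start of Il1rn, the gene of the interleukin-1 receptor antagonist, which LPS induces and which blocks interleukin-1 signalling. It held 139, 146 and 82.3 CPM in LPS_PMMA and 17.2, 8.61 and 12.8 in LPS_ES_PMMA. The lowest control library lay over 4 times above the highest library with enoxaparin. Its log2 fold change was -3.23 (edgeR, SE 0.38, adjusted p 0.00729), past in 5 of 6 leave-one-out fits. The table lists no gene for it.

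The falls that held in 6 of 6 leave-one-out fits were of other transcripts. MSTRG.49649.2 has the span and exon length of an annotated transcript of Gm12764, at 63.4, 66.5 and 62.5 CPM in LPS_PMMA and 7.53, 8.61 and 5.73 in LPS_ES_PMMA. Its libraries were close together within each group, and the log2 fold change of -3.14 (edgeR, SE 0.27, adjusted p 0.00279) passed in 6 of 6 leave-one-out fits. MSTRG.56724.3 and MSTRG.28460.1, listed with the tetraspanin gene Tspan3 and the calpain protease gene Capn1, passed in 6 of 6 as well. MSTRG.56724.3 went from 162 ± 15.6 to 19.2 ± 7.08 CPM (edgeR log2 fold change -3.06 ± 0.35 SE with adjusted p 0.00688). MSTRG.28460.1 went from 71.3 ± 5.11 to 11.5 ± 2.72 CPM (edgeR log2 fold change -2.63 ± 0.28 SE with adjusted p 0.00542).

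MSTRG.40718.3 (chromosome 4, 133821387 to 133822349, 506 nt) has the span and exon length of an annotated Cd52 transcript; Cd52 is a small glycoprotein of the leukocyte surface. It held 101, 82.3 and 77.6 CPM in LPS_PMMA and 19.9, 17.2 and 33.7 in LPS_ES_PMMA (edgeR log2 fold change -1.87 ± 0.33 SE with adjusted p 0.0229), with no overlap. It passed in 1 of 6 leave-one-out fits. MSTRG.19893.6, with an end on the sialyltransferase gene St3gal1, went from 219 ± 14.3 to 77 ± 8.71 CPM (edgeR log2 fold change -1.51 ± 0.23 SE with adjusted p 0.0166), past in 1 of 6. The remaining 4 of the 12 largest falls, MSTRG.42326.1, MSTRG.48269.1, MSTRG.30697.1 and MSTRG.30625.1, had log2 fold changes between -3.59 and -2.92, no tied gene and 0 to 2 of 6 passes.

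Transcripts that rose were fewer and, apart from those at Spp1 described below, mostly low. MSTRG.58017.1, listed with the unconventional myosin gene Myo5c, held 5.9, 9.84 and 6.5 CPM in LPS_PMMA and 52.7, 49.6 and 55.2 in LPS_ES_PMMA. The spread within each group was small beside the gap, and the log2 fold change of 2.81 (edgeR, SE 0.29, adjusted p 0.00526) passed in 6 of 6 leave-one-out fits. MSTRG.28487.4 has an end on Neat1, the lncRNA that scaffolds nuclear paraspeckles, at 1 of the 2 offsets its neighbours gave, so that the tie is uncertain. It is listed with Tigd3 and was the most abundant riser outside Spp1, at 337, 420.3 and 442 CPM in LPS_PMMA and 1039, 1040.0 and 1258 in LPS_ES_PMMA (edgeR log2 fold change 1.48 ± 0.25 SE with adjusted p 0.0217, past in 1 of 6).

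**Figure D3:**
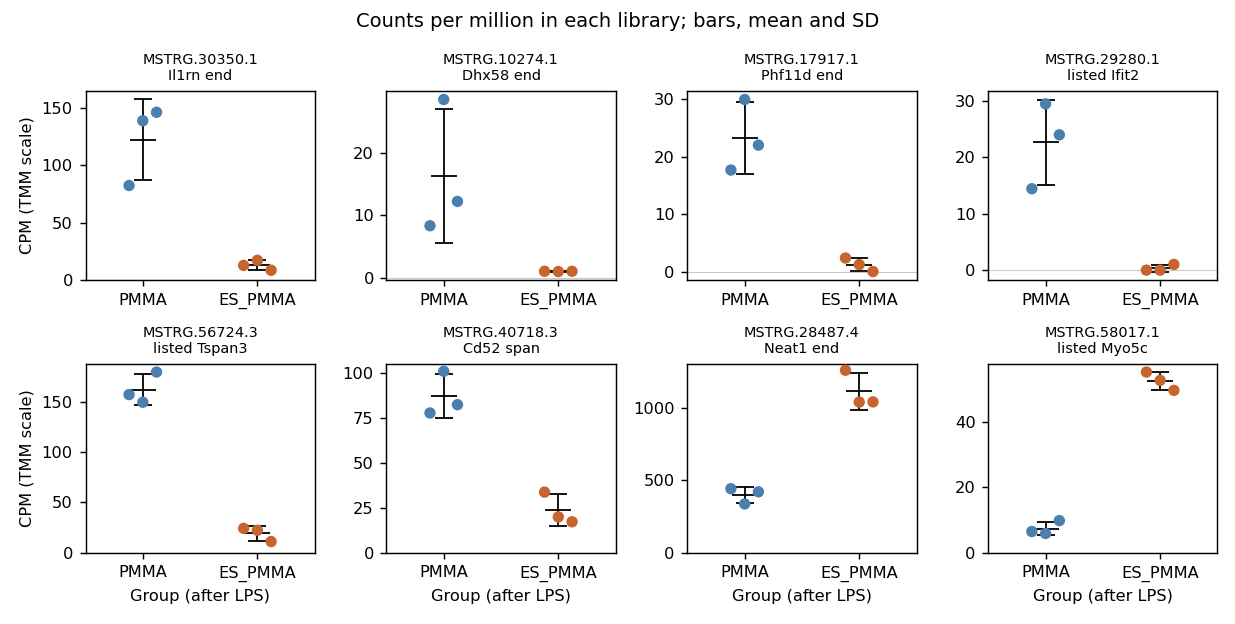
CPM on the TMM scale (y axes, each panel with its own range) of 8 transcripts in the 6 libraries, by group (x axes; points, libraries; bars, mean and SD). In the 4 transcripts tied to Il1rn, Dhx58, Phf11d and Cd52, and in the 2 that the table only lists with Ifit2 and Tspan3, each LPS_ES_PMMA point lies below each LPS_PMMA point, and for MSTRG.28487.4 and MSTRG.58017.1 above.

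No reads in LPS_PMMA were found for 2 risers, and their folds are lower bounds set against a floor of 3 counts summed over that group. MSTRG.51056.1, listed with the potassium channel subunit gene Kcne3, had 25, 41 and 44 reads in LPS_ES_PMMA and was at least 29.7-fold higher (edgeR adjusted p = 0.0217, past in 1 of 6 leave-one-out fits). MSTRG.31906.1, which meets both ends of the selenoprotein gene Selenoh, had 18, 6 and 24 reads and was at least 13.0-fold higher (edgeR adjusted p = 0.0307, past in 0 of 6). Such floors hold for counting error alone, because reads lacking molecular identifiers are not independent molecules.

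MSTRG.46833.1, with an end on the mRNA-binding protein gene Serbp1, rose from 3, 6 and 4 reads to 25, 76 and 162 (edgeR log2 fold change 4.18 ± 0.83 SE with adjusted p 0.0333, past in 1 of 6 leave-one-out fits). Its libraries with enoxaparin were far apart, and its locus did not pass as a sum. MSTRG.45539.1 has the structure of a D5Ertd605e transcript and is listed with the cytokine receptor gene Flt3. It went from 2.96 ± 1.08 to 14.6 ± 2.64 CPM (edgeR log2 fold change 2.30 ± 0.39 SE with adjusted p 0.0206, past in 0 of 6). The other 5 of the 12 largest rises, MSTRG.11543.1, MSTRG.34884.1, MSTRG.44646.1, MSTRG.13112.2 and MSTRG.4501.1, had log2 fold changes between 1.94 and 3.73 and passed in 0 to 2 of 6.

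Few of the 55 calls were robust to the loss of a library. Each library was left out in turn, and 5 passed in 6 of 6 such fits, 10 in at least 3, and 24 in 0. Without LPS_ES_PMMA 1, 2 or 3, 9, 16 or 8 of the 55 still passed, among 9, 18 or 9 calls in all. Without LPS_PMMA 1, 2 or 3, 18, 7 or 19 of the 55 still passed, among 19, 7 or 23. Calls over all features dropped as well, so the loss is not particular to these transcripts. They went from 422 to 54, 112 or 51 without LPS_ES_PMMA 1, 2 or 3. Without LPS_PMMA 1, 2 or 3 they numbered 136, 50 or 125. Of the 18 calls without LPS_ES_PMMA 2, the library with the lowest total, 5 were higher and 13 lower. The transcripts that passed in 6 of 6 were MSTRG.43759.10, MSTRG.49649.2, MSTRG.56724.3, MSTRG.28460.1 and MSTRG.58017.1.

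Counts were then summed over the antisense transcripts of each locus, since reads may be divided differently between isoforms in different libraries. Of 722 tested loci 51 passed (7.06%), 14 higher and 37 lower, against 4.97% of all 8796 rows of that fit (2.26% higher and 2.71% lower). Under column totals the split was 25 higher and 11 lower, under totals implied by FPKM 22 and 18, and without the 7SL transcripts 20 and 27. Of the 51 loci, 49 also held a transcript that passed alone, and 44 held 1 transcript only.

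Summing firmed up locus MSTRG.56724, listed with Tspan3, whose 4 isoforms together held 309, 339 and 284 CPM in LPS_PMMA and 59.5, 64.8 and 64.3 in LPS_ES_PMMA. The sum was more even over libraries than either isoform that passed, with a log2 fold change of -2.30 (edgeR, SE 0.22, adjusted p 0.00247) that passed in 6 of 6 leave-one-out fits. MSTRG.11543, listed with Gm48290, rose from 1.66 ± 1.05 to 18.7 ± 5.11 CPM (edgeR log2 fold change 3.41 ± 0.49 SE with adjusted p 0.0118, past in 3 of 6). MSTRG.1624, MSTRG.51067 and MSTRG.24057 passed too, at log2 fold changes of -1.80, -1.49 and 1.70.

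Passing only as sums were 2 loci, MSTRG.20359, listed with the scaffold protein gene Pick1 (edgeR log2 fold change -1.74 ± 0.39 SE with adjusted p 0.0426), and MSTRG.37417, with an end on the adaptor gene Bcar3 (-1.46, SE 0.32, edgeR adjusted p = 0.0412). They passed in 0 and in 1 of 6 leave-one-out fits. Conversely, MSTRG.43759, MSTRG.46833 and MSTRG.52979 held a transcript that passed alone but did not pass as sums. In these 3 the reads of the locus moved less than those of the isoform.

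Locus MSTRG.43759 (chromosome 5, 104582965 to 104589005) had the most isoforms, 11, and the table lists no gene for it. At a neighbouring offset of 147866 bp its isoforms meet ends of Spp1, the gene of osteopontin, a secreted phosphoprotein made in quantity by macrophages and osteoclasts that binds integrins and bone mineral. The annotation offers a ready comparison of lengths. Within the interval of isoforms 9, 10 and 11, the annotated transcript Spp1-205, whose first exon is 128 nt long, has 1441 nt, and Spp1-201, whose first exon is 79 nt long, has 1389 nt. Spp1-202, also with a first exon of 79 nt, has 1392 nt there. Isoform 11 is 1441 nt long, and isoforms 9 and 10 are 1387 and 1388 nt long. None of isoforms 9, 10 and 11 matched an annotated transcript in both span and exon length. Another isoform of the locus, named below for its uneven reads, did match a transcript of the protein-coding gene Spp1 in both.

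As a whole the locus did not differ between the groups beyond its spread. It held 5646, 7158 and 5543 reads in LPS_PMMA and 13202, 3603 and 12710 in LPS_ES_PMMA, or 2776, 2817 and 2001 CPM against 3206, 1825 and 4282. The groups overlapped, and the log2 fold change was 0.30 (edgeR, SE 0.35, adjusted p 0.67). NONMMUT118967.1, an annotated feature whose listed interval overlaps the locus, held many more reads, 139392 to 411645 per library, and did not pass either (edgeR log2 fold change 0.47 ± 0.47 SE with adjusted p 0.601).

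The isoforms divided these reads in opposite ways. Isoform 11 took 86.9%, 65.0% and 68.5% of the locus in LPS_PMMA and 19.8%, 4.66% and 12.9% in LPS_ES_PMMA. Isoforms 9 and 10 together took 0.319%, 0.126% and 0.992% in LPS_PMMA and 48.2%, 52.0% and 55% in LPS_ES_PMMA. Both shares separated the groups in all 6 libraries, from 73.5% ± 11.8 (SD, n = 3) to 12.5% ± 7.58 for isoform 11 and from 0.479% ± 0.455 to 51.7% ± 3.41 for isoforms 9 and 10. These isoforms were singled out for that separation, so no test is given. The other 8 isoforms took 26.0% ± 11.7 and 35.8% ± 6.49.

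**Figure D4:**
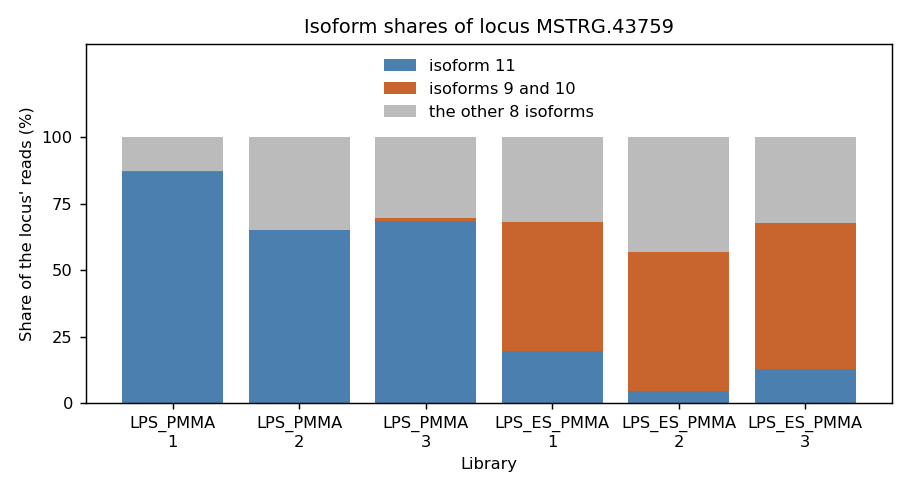
Share of the reads of locus MSTRG.43759 (y axis, %) given to isoform 11 (blue), isoforms 9 and 10 (orange) and the other 8 isoforms (grey) in each library (x axis). Blue makes up at least 65.0% in the LPS_PMMA libraries and at most 19.8% in those of LPS_ES_PMMA, where orange makes up 48.2% to 55%.

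Tested as transcripts, MSTRG.43759.10 held 18, 9 and 28 reads in LPS_PMMA and 3139, 554 and 3055 in LPS_ES_PMMA, a log2 fold change of 6.52 (edgeR, SE 0.67, adjusted p 0.00494) that passed in 6 of 6 leave-one-out fits. MSTRG.43759.9 held 0, 0 and 27 reads against 3221, 1321 and 3933 (edgeR log2 fold change 8.08 ± 1.46 SE with adjusted p 0.0259, past in 1 of 6). MSTRG.43759.11 was lower without passing (-2.14, SE 0.67, edgeR adjusted p = 0.117). The test of isoform use, which asks whether transcripts of a locus moved differently from each other, did not pass for this locus (Simes p from edgeR = 0.108, adjusted p = 0.999).

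Other isoforms of the locus were uneven within groups. MSTRG.43759.4 held 0, 1076 and 0 reads in LPS_PMMA and 1197, 0 and 1579 in LPS_ES_PMMA, and MSTRG.43759.5 and MSTRG.43759.6 were at 0 in the same 3 libraries. MSTRG.43759.8 has the span and exon length of an annotated Spp1 transcript, so its antisense label is doubtful. It held 454 reads in LPS_ES_PMMA 2, the library with few total reads, and 0 to 59 in the others. The same locus thus holds isoforms that separate the groups and isoforms that separate libraries of 1 group.

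Across all loci, isoform shares varied widely between libraries of 1 group. Of the 72 loci with 2 or more antisense transcripts, 61 had at least 20 reads in every library. In 25 of the 61 (41.0%) an isoform's share spanned at least 50 percentage points within a group, and in 27 the same isoform was the largest in all 6 libraries. The largest isoform had a mean share of 69.4% in the median locus. MSTRG.19526, listed with the poly(A)-binding protein gene Pabpc1, is an example of uneven division: in LPS_PMMA its isoform 1 took 94.1% of library 1, isoform 2 took 88.8% of library 2 and isoform 4 took 89.6% of library 3.

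Shares that did not overlap between the groups were found for 24 of the 163 isoforms of these loci (14.7%), in 15 loci, against 12.5% of the 369 isoforms of all assembled loci of this kind. With 3 against 3 libraries such a separation gives an exact permutation p of 0.1 and no less. The test of isoform use passed in 0 of 49 loci with at least 2 tested antisense transcripts, and in 0.0% of all 108 loci tested. Unadjusted p was under 0.05 in 1 of the 49 by edgeR's Simes method and in 2 by its F-test. Leaving out LPS_ES_PMMA 2 brought 1 locus, MSTRG.267, past the threshold (edgeR Simes adjusted p = 0.0151). In MSTRG.267, isoform 2 took 74.3% of that library and 0% to 10.4% of the others. MSTRG.44, with 1 antisense transcript beside others, passed there too (adjusted p = 0.0424).

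**Figure D5:**
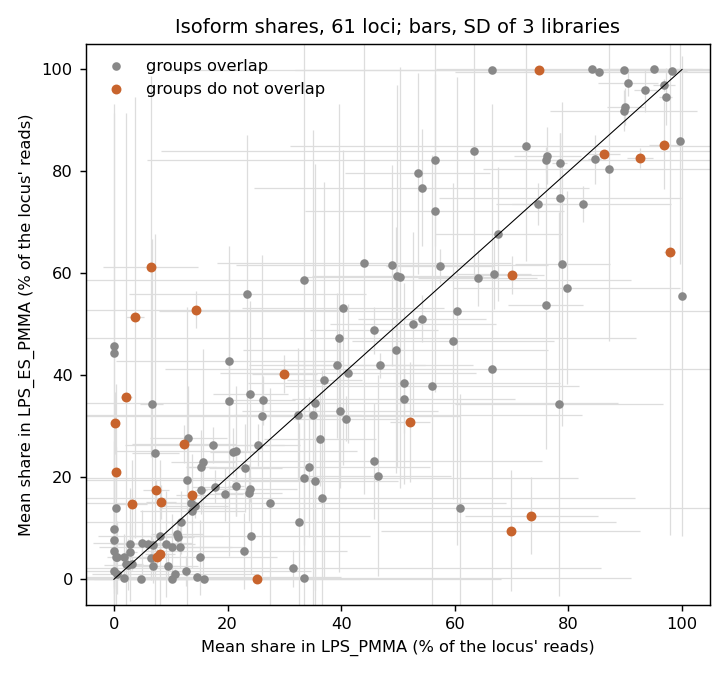
Mean share of each isoform in LPS_PMMA (x axis, % of the locus' reads) and LPS_ES_PMMA (y axis, %), for the 163 isoforms of 61 loci (points; bars, SD of 3 libraries). The 24 isoforms whose shares do not overlap between the groups are orange, and the line marks equal shares.

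The isoform with the largest difference in mean share was taken from each locus, and the 8 largest are described without a test, since they were chosen for it. After isoform 11 of MSTRG.43759 came MSTRG.52981.1 (listed with 4930467E23Rik), with 95.7%, 61.5% and 52.4% in LPS_PMMA and 5.88%, 0% and 22.8% in LPS_ES_PMMA on at most 33 reads a library. MSTRG.265.3 took 1.14%, 16.1% and 2.15% against 25.5%, 58.6% and 100%. MSTRG.46833.1, at Serbp1, took 2.42%, 5.56% and 3.17% against 12%, 44.4% and 97.6%, so that its rise is spread over the full range of shares.

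In the other 4, libraries of 1 group were uneven. MSTRG.19526.5 and MSTRG.40607.4, the second with an end on the phosphatase inhibitor gene Ppp1r8, took 0% in LPS_PMMA 1 to 3 and in LPS_ES_PMMA 3, but 42.5% and 94.8%, and 93.8% and 39.4%, in LPS_ES_PMMA 1 and 2. MSTRG.9737.5, listed with the clathrin heavy chain gene Cltc, took 0%, 0% and 43.3% against 49.6%, 52.3% and 56.9%. MSTRG.12263.2 took 100% of its locus in LPS_ES_PMMA 2 and 1.15% to 3.95% elsewhere, as described for the 7SL transcripts.

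A smaller but even shift was seen in MSTRG.4494, the locus with the lowest p of isoform use. Its shorter isoform of 327 nt took 8.24%, 4.79% and 9.15% of the reads in LPS_PMMA and 17.3%, 15.5% and 19.5% in LPS_ES_PMMA, so that no libraries overlapped. Isoform use did not pass after adjustment (Simes p from edgeR = 0.0392, adjusted p = 0.848).

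Besides MSTRG.43759, 2 loci had 5 or more antisense isoforms. MSTRG.52979 (chromosome 8, 19734200 to 21118584), with 6 isoforms and the listed genes 4930467E23Rik, 6820431F20Rik and Gm20946, summed to 90.5, 157 and 159 CPM in LPS_PMMA and 237, 244 and 222 in LPS_ES_PMMA. The groups did not overlap, but the sum did not pass (edgeR log2 fold change 0.80 ± 0.27 SE with adjusted p 0.135). Its isoform MSTRG.52979.10 rose from 34 ± 4.18 to 81.9 ± 7.25 CPM (edgeR log2 fold change 1.27 ± 0.24 SE with adjusted p 0.0293, past in 0 of 6 leave-one-out fits). MSTRG.4479 (chromosome 10, 22099912 to 22291580), with 5 isoforms, summed to 116, 117 and 147 CPM against 174, 169 and 187 without passing (edgeR log2 fold change 0.48 ± 0.22 SE with adjusted p 0.242).

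Transcripts were last grouped by lists of genes with known roles, through the listed gene. For RIG-I and interferon genes, 6 of 7 transcripts were tested, 3 fell and 0 rose, with a median log2 fold change of -2.28 beside 0.03 over all features, of which 2.58% fell and 2.18% rose. Over all 799 tested antisense transcripts the median was -0.38, and 4.63% fell and 2.25% rose. None of the 6 tested was tied to its listed gene, so membership rests on the table's gene column. The 3 are the transcripts listed with Ifit2 and Ifi213 given above, and both listed with Ifit2 are neighbours. The others, listed with Ifi209 and Ifi204, did not pass: MSTRG.3401.1 (Ifi209) held 24.1 ± 1.70 CPM in LPS_PMMA and 26.7 ± 4.06 in LPS_ES_PMMA (edgeR adjusted p = 0.771).

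Other lists held few transcripts by listed gene, too few to set against the 2.58% of all features that fell. Here too, membership rests on the table's gene column. Of lysosome and phagocytosis genes, 1 of 2 tested fell, MSTRG.3245.1 listed with the Fc receptor gene Fcgr3, from 35.6 ± 12.5 to 11.2 ± 3.22 CPM (edgeR log2 fold change -1.65 ± 0.36 SE with adjusted p 0.044). Of integrated stress and unfolded protein response genes, 1 of 1 fell, MSTRG.3234.1 listed with the stress sensor gene Atf6, from 23.3 ± 10.6 to 4.22 ± 2.37 CPM (edgeR log2 fold change -2.41 ± 0.51 SE with adjusted p 0.0406). Both passed in 0 of 6 leave-one-out fits. Neither MSTRG.3245.1 nor MSTRG.3234.1 met an annotated end at the offset of its neighbours, so neither is shown to lie at its listed gene. MSTRG.35385.1, listed with the cystine transporter gene Slc7a11 of the NRF2 list, held 96.3 ± 22.2 and 43.8 ± 9.89 CPM without passing (edgeR adjusted p = 0.0773).

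No test was passed by listed gene in the translation (2 tested), proliferation (1), sterol (1), glycolysis (1) or macrophage identity (1) lists. The proliferation transcript, MSTRG.19832.1, is listed with Myc but has an end on its lncRNA neighbour Pvt1, at 26.2 ± 3.26 and 52.1 ± 5.87 CPM (edgeR adjusted p = 0.0661). The macrophage transcript, MSTRG.25685.1, is listed with Adgre1, the gene of the macrophage marker F4/80, at 57.3 ± 6.29 and 39.0 ± 5.69 CPM (edgeR adjusted p = 0.238). MSTRG.25685.1 met no annotated end at the offsets its neighbours gave, so it is not shown to lie at Adgre1. No transcript was listed with an inflammatory LPS and NF-kB, M2, osteoclast or other-cell-type gene. By listed gene, 1 of 7 macrophage markers that define the cell type had a transcript, and 0 of 12 markers of fibroblasts, epithelium, endothelium and lymphocytes did. By tied gene, 0 of the macrophage markers had one, so the cell type cannot be checked from these transcripts.

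Grouped instead by tied gene, a grouping added after the positions had been examined, other lists came to hold members. The inflammatory list held MSTRG.30350.1 at Il1rn, which fell, and the interferon list held MSTRG.10274.1 at Dhx58, which fell. The osteoclast list held 12 tested transcripts, of which 11 were isoforms of MSTRG.43759 at Spp1, with 2 that rose. The NRF2 list held MSTRG.39913.2 at the peroxiredoxin gene Prdx1 and MSTRG.5936.1 at the thioredoxin reductase gene Txnrd1, neither of which passed (edgeR adjusted p = 0.961 and 0.466). Nor did MSTRG.36586.1 at the cathepsin gene Ctss of the lysosome list (edgeR adjusted p = 0.392) or MSTRG.46969.1 at the hexokinase gene Hk2 of the glycolysis list (0.38). The other lists held no tested transcript by tied gene.

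Transcripts that can be read as ordinary genes did not all pass the test. Among those with both ends of a gene and high mean FPKM was MSTRG.40776.2 at the chloride channel gene Clic4 (mean FPKM 533). It was lower without passing, at 520 ± 93.3 and 259 ± 57.1 CPM (edgeR log2 fold change -1.01, adjusted p = 0.0867). MSTRG.10837.3 at Jpt1 (453) and MSTRG.47831.1 at the RNA-binding protein gene Hnrnpf (256) had log2 fold changes of -0.34 (edgeR adjusted p = 0.666) and 0.15 (0.752). Of tested transcripts with the structure of an annotated transcript, 4 of 74 passed, 2 in each direction, beside 4.76% of all features. The others that passed were 4 of 50 with both ends of a gene, 8 of 161 with 1 end, 31 of 375 with no annotated end at a known offset (8 higher and 23 lower) and 8 of 139 with no offset to try. Whether these shares differ was not tested. In bulk RNA, fewer cells making an RNA and less RNA per cell cannot be told apart.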

How the data were processed

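RNA of 6 libraries of RAW264.7 cells, 3 per group, was sequenced from 1.3 ug of total RNA with a SMARTER mRNA kit, per the labels' protocols. Groups come from the titles. The deposited table gives the authors' raw counts per transcript and the authors' FPKM, per the file headers; no source used here names the assembler, aligner, counter or strand setting. The deposited log2 values are the authors' ratios of group mean FPKM, and the deposited p-values and q-values are the authors' own comparison, per the file headers. Neither was used for results. The submitters' processing notes name build mm10. Total counts per library ranged from 1123551 to 3697638. Annotated features outside the antisense label enter each fit.

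Features were kept by filterByExpr (minimum count 10, minimum total 15), scaled by TMM and compared with the quasi-likelihood F-test of edgeR 4.0.16 in R 4.3.3, adjusted by Benjamini-Hochberg over 8873 features (8796 with antisense loci summed) at 0.05. Isoform use was tested with edgeR's diffSpliceDGE. A prior count of 0.125 enters the log2 fold changes, whose SE is approximate (size divided by root F). The common biological coefficient of variation was 0.415. CPM are counts over TMM-scaled totals. Bounds use 3 counts over a group at 0. The scripts were tested on simulated data.

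The members, the 13 gene lists and the tests were chosen with earlier results of these data known. Named transcripts are up to 12 per direction by size of change among those past the threshold without overlap and with a mean FPKM of at least 1, the 8 highest in FPKM, the 8 largest changes of isoform share, loci with 5 or more isoforms, list members (up to 5 per list) and loci of 2 or more transcripts past the threshold after summing. Loci of 1 transcript that passed are named only where chosen otherwise, so the named falls and rises are not complete. MSTRG.28460.1, MSTRG.40718.3, MSTRG.48225.3, MSTRG.19893.6, MSTRG.28487.4, MSTRG.4494 and transcripts tied to lists or to both ends of a gene were named after their values were seen. Positions were compared with GENCODE M21 (GRCm38) at the listed place and at offsets within 1.5 Mb, taking matches supported by another locus within 20 Mb at the same offset (within 200 bp). Alternatives were other scalings, filters, DESeq2 1.42.0, limma 3.58.1 on log2(FPKM + 0.1) and log2(FPKM + 1), robust edgeR, a replicate block and leaving out each library. The scaling without the 7SL transcripts was chosen after seeing the data. No pair of libraries of a group was alike within sampling noise, with chi-square per degree of freedom from 15.4 to 45.3. A transcript sequence at the 7SL genes is not reported here.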

Additional observations from a re-analysis of the deposited data

How the results depend on the processing

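Of the counts of calls, that of antisense transcripts (55) lay within 1.5 times of itself under column totals (39), implied totals (43), column totals without the 7SL transcripts (50), robust edgeR (60), limma (40 and 59) and DESeq2 (77). It was 29 with no filter on low counts and 30 with a mean FPKM of at least 1, where more features are tested, and 7 to 23 with 1 library left out. For loci (51), the first 7 settings gave 36 to 76, no filter and the FPKM filter gave 32 each, and leaving out a library gave 7 to 31. Loci with a change in isoform use numbered 0, and 0 to 1 with a library left out. With the replicate number as a block, 5 transcripts and 8 loci passed and isoform use stayed at 0. Replicate numbers were shared by number only: deviations of same-numbered libraries correlated at -0.02, -0.03 and -0.09. Of single transcripts, MSTRG.12263.2 reversed to -1.07 without LPS_ES_PMMA 2, and MSTRG.21596.1 to -1.33 without it and to -0.19 with the block. MSTRG.21596.2, with -0.20 under TMM, reversed to 0.97, 0.36 and 0.21 under column totals, implied totals and those without 7SL, to 0.31 and 0.83 without LPS_ES_PMMA 1 or LPS_PMMA 1, and to 0.0534 and 0.0538 in the limma fits. MSTRG.9713.1, with -0.34, reversed in the same order to 0.71, 0.16, 0.0096, 0.08, 0.24, 0.0228 and 0.0230. The cause was not tested. With 1 library left out these 4 ranged from -1.07 to 1.80 (MSTRG.12263.2), -1.33 to 1.33 (MSTRG.21596.1), -0.88 to 0.83 (MSTRG.21596.2) and -0.72 to 0.24 (MSTRG.9713.1). None of the 4 was past the threshold. Depth limits calls on transcripts with few reads: 254 of the 1053 were not tested.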
